A study of Drosophila melanogaster with 12 samples.

Results

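The genes described here are 10 genes of glial fate and glial function in *Drosophila melanogaster*, namely *repo*, *gcm*, *gcm2*, *moody*, *nrv2*, *wrapper*, *axo*, *Gs2*, *Eaat1* and *Gat*. They were chosen by name for their known roles in glia and make up 10 of the 17521 genes in the expression table. Glia are the support cells of the nervous system. In the fly they insulate and wrap axons, seal the blood-brain barrier with septate junctions, clear transmitters from synapses and turn them into compounds that neurons can use again. The developing eye disc holds glia that migrate in from the brain along the optic stalk and wrap the axons of photoreceptors, so a wild-type eye disc is a mixture of epithelium, neurons and glia.

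Sequencing of RNA covered 5 groups with 12 samples in all. As control served 3 samples of wild-type eye discs from late 3rd instar larvae, each placed in the abdomen of adult *w1118* female hosts and taken out 1 day later. The 3 tumour groups held 2 samples each of *ph505* eye disc tumours kept in adult hosts by weekly retransplantation for 4, 8 or 14 weeks. The last group held 3 samples of adult *ph505* clones that did not grow as tumours, called metamorphed cells because they had passed through metamorphosis in their own animal. The *ph505* allele removes the function of both adjacent *polyhomeotic* genes, *ph-p* and *ph-d*, which encode a Polycomb group protein. Mutant cells of the tumour and metamorphed groups were made as MARCM clones, with *ph505 FRT19A* over *tub-Gal80 FRT19A* and a chromosome with *ey-flp*, *act>STOP>Gal4* and *UAS-GFP*, so that only cells that had lost *tub-Gal80* were marked. The *ey-flp* transgene is also active in the leg and genital discs, and marked adult cells need not come from the eye disc. How metamorphed cells were separated from the adult tissue around them is not given in the sources used here. No wild-type tissue that had passed through metamorphosis was among the samples, so genotype and stage cannot be told apart in metamorphed cells against control. RNA was collected independently for each sample, but the number of animals behind a sample is not given in the sources used here.

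Control replicate 1 was the shallowest sample, with 2072498 reads on genes, and metamorphed replicate 2 the deepest, with 81447816, a 39.3-fold range. The tumours had 16619078 to 24144498 reads and the metamorphed cells 66046651 to 81447816. Levels are given as CPM, that is, read counts scaled to a common library size by the authors. With 3 reads a gene reached 1.18 CPM in the shallowest sample but only 0.042 CPM in the deepest, so low values are least precise in control replicate 1. Floors of this kind and the Poisson intervals given for *repo* hold for counting error alone, because PCR copies of a molecule are counted as separate reads. Control and tumour libraries were run on another instrument than metamorphed libraries, and instrument and group cannot be told apart in any comparison with metamorphed cells. The eye disc label of the control was checked here on *gl* alone, the transcription factor of photoreceptor fate, which stood at 128 to 222 CPM in control. Its level was 0.0409 to 2.45 CPM in the 6 tumours, with a mean of 5.19 ± 5.89 CPM (SD, n = 3) in metamorphed cells.

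The glial genes did not move together. In tumours, 6 of them were lower than in control and 0 were higher (0 also at an unadjusted p under 0.05 in limma), against 21.6% of all 10177 genes tested that were lower and 14.4% that were higher. These 6 were *repo*, *moody*, *wrapper*, *axo*, *Gs2* and *Gat*, and *nrv2* was called in no comparison. In metamorphed cells against the same control samples, 3 genes were higher (*Gs2*, *Eaat1* and *axo*; 21.6% of all genes tested were higher) and 2 were lower (*repo* and *wrapper*; 19.0% were lower). Against tumours, 4 genes were higher in metamorphed cells (*moody*, *axo*, *Gs2* and *Eaat1*; 28.5% of all genes tested were higher) and 0 were lower (18.0% of all genes tested were, and 0 of the glial genes had a change below 0). The enzymes and transporters *Gs2* and *Eaat1* thus reached their highest level in the cells in which the fate gene *repo* stood at 0.168 to 9.02 CPM. A call means an adjusted p under 0.05 in the limma fit of log2(CPM + 1) across all genes tested. Genes were tested where at least 2 samples reached 1 CPM, which 8 of the 10 did. *repo* and *wrapper* passed that filter only through the control samples and *Eaat1* only through the metamorphed samples, so their differences were to some extent set by the filter, and the counts above describe the 8 genes tested. The markers of neurons fell in tumours too, with 7 of 9 lower and a summed level of 93.9 to 211 CPM in the 6 tumours against 286 to 580 CPM in control, and their part in the fall of the glial genes was not tested. In whole tissue, fewer glial cells and less RNA per glial cell cannot be told apart.

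**Figure D1:**
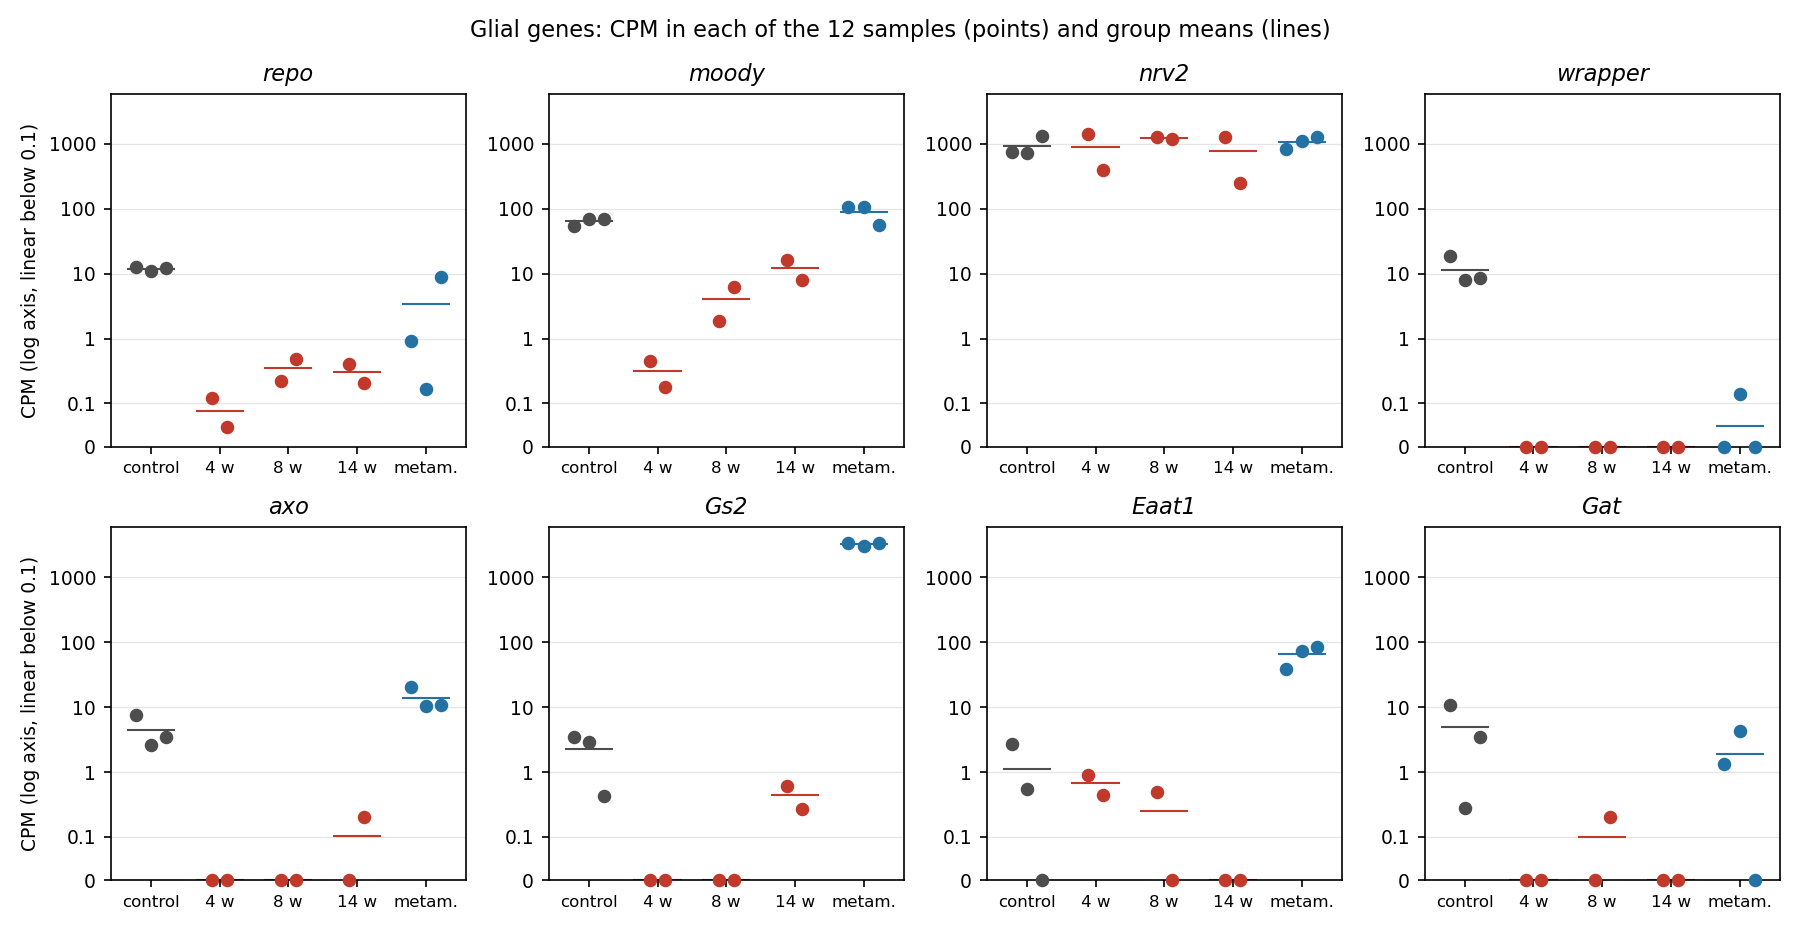
CPM of the 8 glial genes with reads in more than 1 sample (y axis, logarithmic above 0.1 and linear below, so that samples at 0 can be drawn), with 1 point per sample and a line at each group mean, for control (grey, n = 3), tumours at 4, 8 and 14 weeks (red, n = 2 each) and metamorphed cells (blue, n = 3). *repo*, *moody*, *wrapper*, *axo* and, narrowly, *Gat* separate all 6 tumours from all 3 controls, and *nrv2* does not separate the groups. The share of all genes tested that separate in this way is not given here. *repo* and *wrapper* passed the filter on low values only through the control samples. *Gs2* stands between 3050 and 3456 CPM in metamorphed cells against at most 3.53 CPM in any other sample. *gcm* (1 read in 1 sample) and *gcm2* (0 reads) are not drawn.

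The fate genes come first. *gcm* (FBgn0014179; chromosome 2L, 9579498 to 9581745 in dm6, minus strand) and its neighbour *gcm2* (FBgn0019809; chromosome 2L, 9608562 to 9612706, plus strand) encode transcription factors that are switched on briefly in embryonic precursors and direct them to become glia, and they also act in blood cell precursors. *gcm* had 1 read in control replicate 1 and 0 reads in the other 11 samples, and *gcm2* had 0 reads in all 12. In the deepest sample, metamorphed replicate 2, a count of 0 allows up to 0.042 CPM at 3 reads. In control replicate 1, the shallowest, a count of 0, as for *gcm2*, allows up to 1.18 CPM, so expression below that level could have been missed. The 1 read of *gcm* in that disc sample stood at 0.392 CPM. Neither gene was tested.

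*repo* (FBgn0011701; chromosome 3R, 18236192 to 18239602, plus strand) encodes the homeodomain protein by which nearly all fly glia outside the midline are recognised. The controls had 12.5, 10.9 and 12.1 CPM. The 6 tumours had 1 to 12 reads each, which is 0.0445 CPM at the lowest, 0.213 CPM at the median and 0.485 CPM at the highest. All tumours lay far below all controls, with a log2 fold change of -3.38 (SE 0.56, adjusted p = 0.000505) and means of 0.247 ± 0.168 CPM (SD, n = 6) and 11.9 ± 0.856 CPM (SD, n = 3). *repo* passed the filter on low values only through the control samples, so its differences from control were to some extent set by the filter. Metamorphed replicates 1 to 3 stood at 0.910, 0.168 and 9.02 CPM, from 51, 12 and 549 reads. Their exact 95% Poisson intervals were 0.678 to 1.20, 0.0869 to 0.294 and 8.28 to 9.80 CPM, so the 3 samples differed by more than counting error. Replicate 3 lay close to the control and replicate 2 among the tumours.

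Metamorphed cells were called lower than control for *repo*, at a log2 fold change of -2.19 (SE 0.64, adjusted p = 0.0155), with no overlap between the samples. The call was lost without metamorphed replicate 1 (-1.91, adjusted p = 0.0600), without replicate 2 (-1.55, adjusted p = 0.0702) and when the tumours were left out of the fit (adjusted p = 0.0643). Without replicate 3 the change was -3.10. Against tumours the change was 1.19 (SE 0.56, adjusted p = 0.0983), and it became a call of 1.82 (adjusted p = 0.0219) without replicate 2. *repo* shares 183 exon bases with *CG7156* on the opposite strand, which limits its count, since the strand setting of the counting is not given in the sources used here. *CG7156*, named here for that overlap after its values were seen, had 56.2, 30.1 and 65.7 CPM in the metamorphed samples and 8.06 to 45.1 CPM across the tumours.

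The next genes act at the glial surface. *moody* (FBgn0025631; chromosome X, 2044292 to 2050120, minus strand) encodes a G protein-coupled receptor of the subperineurial glia, which is needed for a tight blood-brain barrier. Controls 1 to 3 had 54.5, 69.6 and 70.8 CPM of it. Its level was 0.450 and 0.178 CPM in the 4-week tumours, 1.89 and 6.31 in the 8-week tumours and 16.4 and 7.99 in the 14-week tumours. Every tumour lay below every control, and the change was -3.96 (SE 0.42, adjusted p = 1.25e-05). Metamorphed replicates 1 to 3 had 108, 108 and 55.9 CPM, the first pair above and the last within the control range. Their mean of 90.4 ± 29.9 CPM (SD, n = 3) was 16.4-fold that of tumours (26.9-fold without the first 14-week tumour), a log2 fold change of 4.38 (SE 0.42, adjusted p = 1.48e-06), whereas the change against control was 0.42 (SE 0.48, adjusted p = 0.518) and was not called.

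Of the 8 genes tested, *moody* had the largest log2 change between tumour ages. The means were 0.314, 4.10 and 12.2 CPM at 4, 8 and 14 weeks, with no overlap between the ages. The change from 4 to 14 weeks was 3.26 on the log2 scale (SE 0.59) and missed the threshold, with an adjusted p of 0.0703. At 14 weeks *moody* was still called lower than control, at -2.39 (SE 0.54, adjusted p = 0.00599), against -5.65 (SE 0.54, adjusted p = 1.42e-05) at 4 weeks.

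*nrv2* (FBgn0015777; chromosome 2L, 6789770 to 6798862, minus strand) encodes a beta subunit of the sodium-potassium pump. It is widely used as a glial marker and is also a component of septate junctions in epithelia, so its reads need not come from glia. Its controls had 758, 718 and 1321 CPM. At 4 weeks the tumours had 1401 and 403 CPM, at 8 weeks 1299 and 1176, and at 14 weeks 1299 and 248. The second tumours at 4 and at 14 weeks thus lay below all controls while the other 4 lay at or above the middle of the control range. The metamorphed samples, at 840, 1106 and 1297 CPM, lay within the range of the tumours. No comparison was called, with changes of -0.15 (SE 0.49, adjusted p = 0.855) in tumours and 0.25 (SE 0.56, adjusted p = 0.757) in metamorphed cells against control, and the estimate in tumours ran from -0.69 to 0.62 over the alternatives tried.

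*wrapper* (FBgn0025878; chromosome 2R, 22379637 to 22382675, plus strand) encodes an immunoglobulin-type surface protein, known from midline glia that enwrap commissural axons. It was read at 18.4, 7.91 and 8.47 CPM in the controls. All 6 tumours had 0 reads. Metamorphed replicates 1 and 3 also had 0 reads, and replicate 2 had 10 reads, 0.140 CPM. *wrapper* was at least 499-fold lower in tumours than in control, taking 3 reads over the 6 tumours as the floor (adjusted p = 6.01e-06), and 248-fold lower in metamorphed cells (log2 fold change -3.50, SE 0.40, adjusted p = 1.36e-05). These calls held under all alternatives tried. *wrapper* passed the filter on low values only through the control samples, so its differences from control were to some extent set by the filter.

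*axo* (FBgn0262870; chromosome 3L, 4629604 to 4687317, minus strand) encodes Axotactin, a neurexin-related protein that glia secrete onto axons and that affects their conduction. The 3 controls had 7.45, 2.59 and 3.44 CPM. Of the tumours 5 had 0 reads and the second 14-week tumour had 3 reads. The metamorphed samples had 20.5, 10.4 and 10.9 CPM, all above the controls. The change was -2.31 in tumours (SE 0.41, adjusted p = 0.000805) and 1.48 in metamorphed cells against control (SE 0.47, adjusted p = 0.0231), a ratio of means of 3.10. The second call was lost under 7 of 25 alternatives, among them the fits without control replicate 2 (1.22, adjusted p = 0.0722), without control replicate 3 (1.37, adjusted p = 0.0620) and without metamorphed replicate 1 (1.18, adjusted p = 0.0621). Against tumours the change was 3.79 (SE 0.41, adjusted p = 4.72e-06). An antisense gene that shares exon bases with *axo*, *asRNA:CR45830*, had 0 reads in all 12 samples.

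The last genes take up and recycle transmitters. *Gs2* (FBgn0001145; chromosome X, 11422832 to 11430197, plus strand) encodes the cytoplasmic glutamine synthetase, with which glia turn glutamate into glutamine. In control it was low, at 3.53, 2.87 and 0.430 CPM, from 9, 93 and 9 reads. The 4 tumours of 4 and 8 weeks had 0 reads, and the 14-week tumours had 0.606 and 0.271 CPM. Metamorphed replicates 1, 2 and 3 reached 3394, 3050 and 3456 CPM. No sample of another group came near them, and among the 17215 genes with an exon length *Gs2* ranked 42nd, 36th and 46th by CPM per kb of exon in these 3 samples.

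The mean of *Gs2* in metamorphed cells, 3300 ± 219 CPM (SD, n = 3), was 1449-fold that of control. The log2 fold change was 10.14 (SE 0.50, adjusted p = 1.64e-08) against control and 11.52 (SE 0.43, adjusted p = 7.95e-10) against tumours. Over the alternatives the first ran from 9.07 to 11.07. In tumours *Gs2* was called lower than control at -1.38 (SE 0.43, adjusted p = 0.0251), although the samples overlapped. That call rested on few reads and was lost under 5 of 25 alternatives, among them the fits without control replicate 1 (-1.06, adjusted p = 0.121) and without control replicate 2 (-1.18, adjusted p = 0.0967).

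*Eaat1* (FBgn0026439; chromosome 2L, 9333567 to 9341925, plus strand) encodes the glutamate transporter of astrocyte-like glia. Control replicates 1 to 3 had 2.74, 0.556 and 0 CPM. The 4-week tumours had 0.900 and 0.445 CPM, the 8-week tumours 0.501 and 0, and both 14-week tumours 0 reads. These ranges overlapped, and the change of -0.51 (SE 0.48, adjusted p = 0.444) was not called. *Eaat1* passed the filter on low values only through the metamorphed samples, so its differences there were to some extent set by the filter. In metamorphed cells it stood at 38.2, 73.6 and 83.9 CPM, all above every other sample. Their mean of 65.2 ± 24.0 CPM (SD, n = 3) was 59.3-fold that of control (235-fold without control replicate 1, whose level rested on 7 reads; 5.13 on the log2 scale, SE 0.56, adjusted p = 9.37e-06) and 212-fold that of tumours (345-fold without the first 4-week tumour; 5.63, SE 0.48, adjusted p = 5.28e-07).

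*Gat* (FBgn0039915; chromosome 4, 629691 to 635350, plus strand) encodes the transporter that clears GABA into astrocyte-like glia. It varied widely within groups. Control replicates 1 to 3 had 11.0, 0.278 and 3.44 CPM, 5 tumours had 0 reads and the second 8-week tumour had 5 reads, 0.202 CPM. The metamorphed samples had 1.32, 4.37 and 0 CPM, all within the range of control and tumours. The call in tumours (-1.98, SE 0.63, adjusted p = 0.0251) was lost without control replicate 1 (-1.21, adjusted p = 0.163), without control replicate 3 (-1.92, adjusted p = 0.0871) and without the first 8-week tumour (-1.94, adjusted p = 0.0562). Against control, metamorphed cells differed by -0.82 (SE 0.72, adjusted p = 0.398), which was not called.

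**Figure D2:**
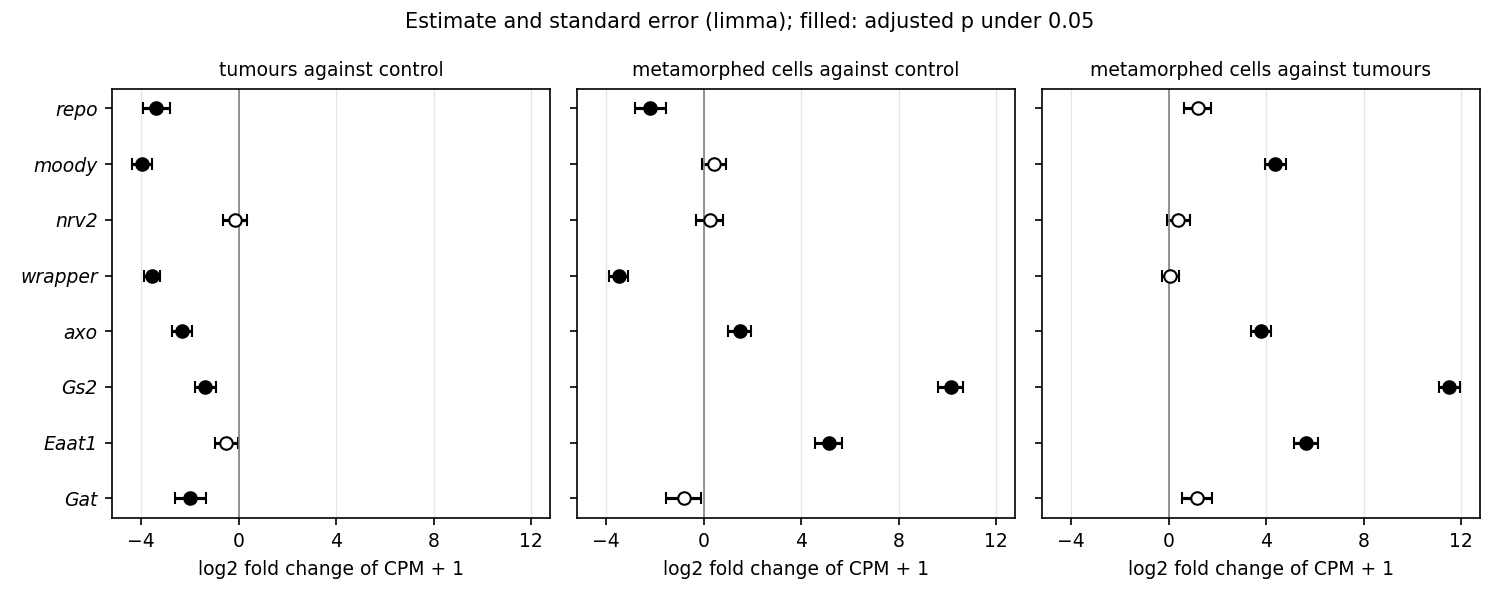
Log2 fold change of CPM + 1 (x axis) with its standard error for the 8 glial genes tested, in tumours against control, metamorphed cells against control and metamorphed cells against tumours, with filled points for an adjusted p under 0.05 in limma. *Gs2* and *Eaat1* lie far to the right in both comparisons of metamorphed cells, *wrapper* is low against control in both mutant groups, and *nrv2* lies near 0 in all 3. The first pair of panels shares the control samples.

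By tumour age, 5 glial genes were called lower than control at 4 weeks (*repo*, *moody*, *wrapper*, *axo* and *Gs2*; 21.0% of all genes tested were lower), and 4 at 8 weeks (*repo*, *moody*, *wrapper* and *axo*; 9.84% were lower). At 14 weeks the calls were for *repo*, *moody*, *wrapper* and *axo*, 4 genes, where 14.9% of all genes tested were lower. These 3 comparisons share the control samples. *repo* stayed at 0.0836, 0.354 and 0.304 CPM on average at 4, 8 and 14 weeks, and *wrapper* at 0 reads at each age. *Gs2* had reads at 14 weeks only (0.606 and 0.271 CPM) and *Eaat1* at 4 weeks and in the first 8-week tumour only, but neither difference between ages was called (adjusted p = 0.893 and 0.820 for 14 against 4 weeks).

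Levels of different genes were compared as CPM per kb of exon, which corrects for length. In control, *nrv2* was highest (261 ± 94.5 CPM per kb; SD, n = 3), followed by *moody* (16.5 ± 2.31), *wrapper* (5.87 ± 2.99) and *repo* (3.96 ± 0.286). The samples of *nrv2* and *moody*, and of *moody* and *wrapper*, did not overlap, while those of *wrapper* and *repo* did, as did each pair of neighbours further down through *Gat*, *Gs2*, *axo* and *Eaat1*. In metamorphed cells *Gs2* was highest (1479 ± 98.0 CPM per kb; SD, n = 3), followed by *nrv2* (303 ± 64.4), *moody* (23.0 ± 7.60) and *Eaat1* (20.8 ± 7.63). *moody* and *Eaat1* overlapped there, and so did *axo* (1.53 ± 0.622), *repo* (1.12 ± 1.64) and *Gat* (0.656 ± 0.775) as neighbours. In tumours only *nrv2* stood above the rest without overlap, at 272 ± 142 CPM per kb (SD, n = 6).

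Close relatives of these enzymes and pumps were read beside them. *Gs1*, the mitochondrial glutamine synthetase, had 7.45, 16.6 and 6.89 CPM in control, 0 to 2.22 CPM in tumours and 72.3, 140 and 107 CPM in metamorphed replicates 1 to 3. It was lower than control in tumours (-2.83, SE 0.52, adjusted p = 0.00110) and higher in metamorphed cells (adjusted p = 0.000681), and both calls held under all alternatives tried. Against tumours the change in metamorphed cells was 6.13 (SE 0.52, adjusted p = 5.07e-07). Per kb of exon, *Gs2* made up 33.7%, 15.6% and 6.29% of the summed level of both synthetases in control replicates 1 to 3, and 98.1%, 95.9% and 97.2% in metamorphed replicates 1 to 3. *Eaat2*, the second transporter of its family, had 0 reads in all 6 tumours and 0, 19.7 and 6.78 CPM in metamorphed replicates 1 to 3, and it differed from control by -0.32 in metamorphed cells (SE 1.00, adjusted p = 0.824).

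Against control, the other pump subunits given here were lower in tumours, and only *nrv1* was called in metamorphed cells, whereas *nrv2* was called in neither. *nrv1*, another beta subunit, was lower in tumours (-1.55, SE 0.39, adjusted p = 0.00850) and higher in metamorphed cells (1.88, SE 0.45, adjusted p = 0.00487) than in control, with 397 to 471 CPM in metamorphed cells and 113 to 132 CPM in control. *nrv3*, a beta subunit of the nervous system, was lower in tumours (-2.36, SE 0.49, adjusted p = 0.00250), with -0.45 (SE 0.57, adjusted p = 0.559) in metamorphed cells. Per kb, *nrv2* made up 73.7% to 84.0% of the 3 beta subunits in control, 79.5% to 95.5% in tumours and 51.9% to 65.2% in metamorphed cells. The alpha subunit *Atpalpha*, named after its values were seen, fell by 2.22 on the log2 scale in tumours (SE 0.27, adjusted p = 3.69e-05) and differed by -0.02 in metamorphed cells (SE 0.31, adjusted p = 0.967).

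The 3 metamorphed samples were alike for some glial genes and far apart for others. The highest sample was 1.13-fold the lowest for *Gs2*, 1.54-fold for *nrv2*, 1.93-fold for *moody*, 1.96-fold for *axo* and 2.19-fold for *Eaat1*, but 53.6-fold for *repo*. *Gat* and *wrapper* had 0 reads in at least 1 of the 3. Replicate 1 was highest for *moody* and *axo*, replicate 2 for *Gat* and *wrapper*, and replicate 3 for *repo*, *nrv2*, *Gs2* and *Eaat1*. No replicate was highest for all of these genes.

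Markers of other cell types also moved with the groups and between these 3 samples, and their part in the values above was not tested. Their counts stand beside 21.6% of all genes tested that were higher and 19.0% that were lower in metamorphed cells than in control. Without the metamorphed samples, 4 of 8 photoreceptor markers and 3 of 8 fat body markers would not have passed the filter on low values. The same held for 2 of 9 haemocyte markers, 2 of 7 muscle markers and 2 of 6 cone, pigment cell and lens markers. This bears on the counts of these lists. Summed over 8 fat body markers, of which 8 were higher in metamorphed cells than in control, the level was 9863, 1952 and 3663 CPM in metamorphed replicates 1 to 3, 153 to 963 CPM in control and 1.01 to 14.5 CPM in tumours. The yolk protein genes *Yp1*, *Yp2* and *Yp3* differed 8.74- to 9.04-fold between these 3 samples. *Lsp2*, *Fbp1* and *Lsp1beta* differed only 1.35- to 1.48-fold, *apolpp* 2.05-fold and *to* 15.3-fold, so the 8 markers did not share the spread of their sum. These fat body genes are named after their values were seen. The 8 photoreceptor markers summed to 1253, 2289 and 512 CPM, against 369 to 475 CPM in control and 50.8 to 96.7 CPM in tumours, and 5 were higher and 3 lower in metamorphed cells than in control. *ninaE*, the major rhodopsin of the adult eye, had 698, 1245 and 213 CPM in these samples. All 8 photoreceptor markers and all 6 cone, pigment cell and lens markers were highest in replicate 2, the sample with the least *repo*. The 9 neuron markers summed to 72.9, 143 and 77.7 CPM in metamorphed replicates 1 to 3, below the 286 to 580 CPM of control and beside the 93.9 to 211 CPM of tumours, and 6 of them were lower than in control. The 9 haemocyte markers summed to 428, 647 and 431 CPM, against 128 to 157 CPM in control, with 5 higher and 1 lower. Most of that sum was *crq*, named after its values were seen, at 295, 465 and 351 CPM in metamorphed replicates 1 to 3. The 8 muscle markers summed to 404, 149 and 1070 CPM, against 146 to 240 CPM in control, with 5 of the 7 tested higher and 1 lower.

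**Figure D3:**
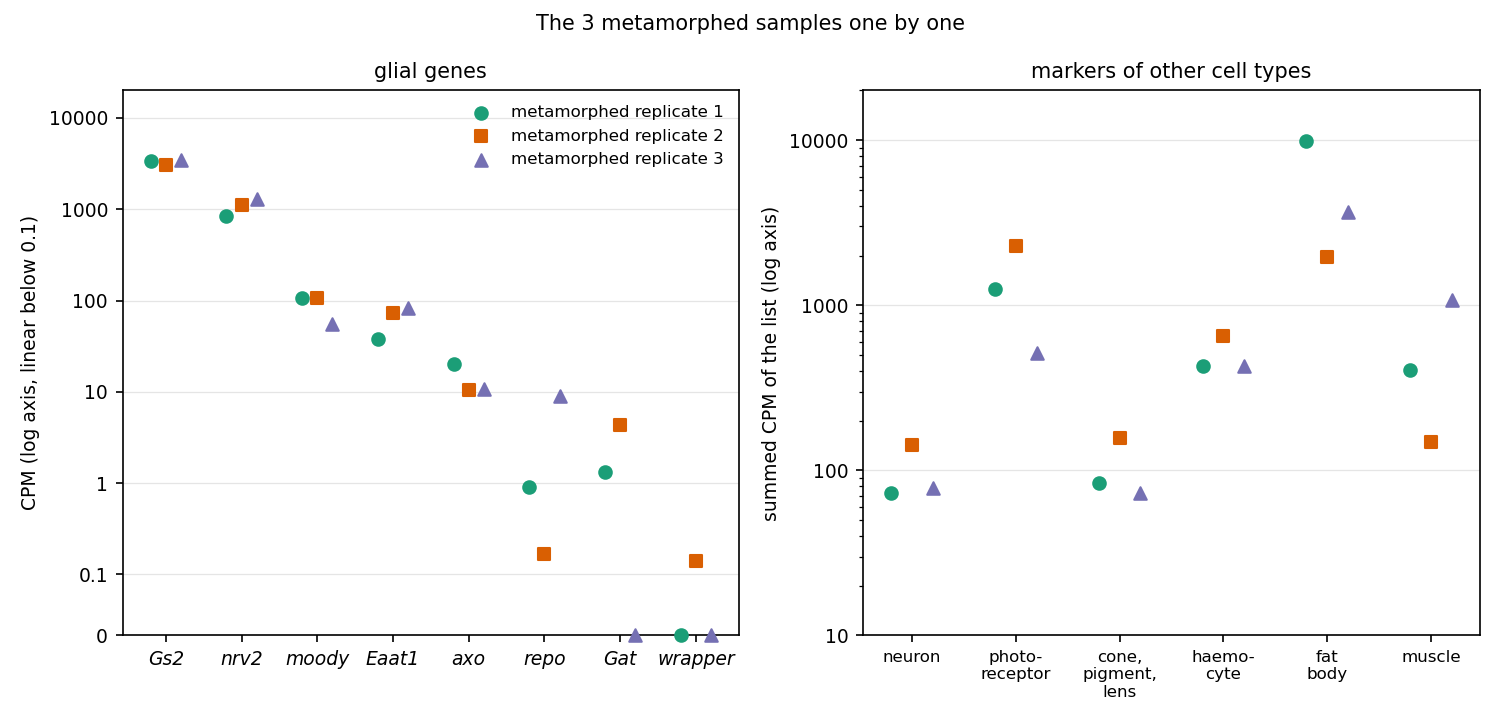
Metamorphed replicates 1 to 3 side by side, with the CPM of 8 glial genes on the left (y axis logarithmic above 0.1 and linear below) and the summed CPM of marker lists for other cell types on the right (logarithmic y axis). *Gs2*, *nrv2*, *moody*, *Eaat1* and *axo* lie within 2.19-fold in the 3 samples, and *repo* spans 0.168 to 9.02 CPM. The summed fat body markers span 1952 to 9863 CPM, a spread found in *Yp1*, *Yp2* and *Yp3* (8.74- to 9.04-fold) but not in *Lsp2*, *Fbp1* and *Lsp1beta* (1.35- to 1.48-fold).

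Septate junctions seal the blood-brain barrier and are shared by glia and epithelia. Of 25 further genes of these junctions and of barrier signalling, 9 were lower and 2 higher in tumours than in control (21.6% and 14.4% of all genes tested were), with a median change of -0.49 beside -0.19 for all genes tested. The largest fall was in *Mdr65*, a transporter of the barrier, which stood at 14.7 to 33.7 CPM in control and 0 to 2.37 CPM in tumours (-4.24, SE 0.51, adjusted p = 3.84e-05). The highest call, *crim*, a Ly6-type junction protein, was at 0.98 (SE 0.35, adjusted p = 0.0463) and held in only 7 of 25 alternatives. In metamorphed cells against control, 6 were higher and 2 lower (21.6% and 19.0% of all genes tested were), so that the share of higher genes was near that of all genes, with a median of 0.12 beside -0.03, from *nrv1* at 1.88 to *Galphao*, a G protein alpha subunit, at -2.07 (SE 0.48, adjusted p = 0.00376). Over the alternatives these counts ran from 0 to 7 higher and from 1 to 7 lower, with 0 higher and 4 lower under CPM of total reads and 1 higher and 7 lower under quantile normalization. Of all genes tested, 1542 of 10190 were higher and 2708 lower under CPM of total reads. Under quantile normalization 1925 of 10177 were higher and 2131 lower. Against tumours, 11 were higher and 1 lower (28.5% and 18.0% of all genes tested were), with a median of 0.62 beside 0.11, and *Mdr65* had the largest rise (3.95, SE 0.51, adjusted p = 2.53e-05).

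Glutamate, GABA, histamine and dopamine are taken up and converted by glial enzymes and transporters. Of 12 further genes of this kind, 3 were lower in tumours and 0 higher, with a median of -0.26, where 21.6% of all genes tested were lower, a share near that of the list, and 14.4% higher. The lowest was *Gabat*, which breaks down GABA, at 33.7 to 82.7 CPM in control and 0 to 0.724 CPM in tumours (-5.51, SE 0.43, adjusted p = 1.2e-06). In metamorphed cells against control, 7 were higher and 1 lower, with a median of 1.50, against 21.6% and 19.0% of all genes tested. Of the 12, 3 passed the filter on low values only through the metamorphed samples, among them *e*, so the difference of *e* was to some extent set by the filter and is given as levels. The highest was *e*, which joins beta-alanine to histamine and dopamine in glia and to dopamine in the epidermis. It had reads in 1 of 3 controls (1.53 CPM), 0 reads in all tumours, and 649, 1271 and 1056 CPM in metamorphed replicates 1 to 3. The lowest was *Gdh*, glutamate dehydrogenase, at 48.9 to 98.0 CPM against 329 to 628 CPM in control (-2.58, SE 0.38, adjusted p = 0.000124). Against tumours, 10 were higher and 1 lower (28.5% and 18.0% of all genes tested were), with a median of 2.07, or 4.96 with the 3 genes at 0 reads in tumours set to their bound of 3 reads.

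Of 20 other genes known from glia that could be tested, 11 were lower and 0 higher in tumours (21.6% and 14.4% of all genes tested were), with a median of -1.38. The largest fall was in *bdl*, an immunoglobulin-type protein of the glia that wrap photoreceptor axons, at 11.0 to 25.9 CPM in control and 0 reads in all 6 tumours (adjusted p = 1.35e-05). In metamorphed cells against control, 8 were higher and 3 lower (21.6% and 19.0% of all genes tested were), with a median of 0.40. These counts ran from 4 to 9 higher and from 1 to 4 lower over the alternatives, and 4 were higher without control replicate 1, where 1843 of all 9900 genes tested were higher. *Vmat*, the vesicular monoamine transporter, was the highest, with 0 reads in control and a mean of 31.0 ± 22.2 CPM (SD, n = 3) in metamorphed cells, and it passed the filter only through these samples. *htl*, the FGF receptor that glia use for migration and wrapping in the eye disc, was the lowest, at 11.2 to 18.0 CPM in control and 2.48, 1.29 and 0 CPM in metamorphed replicates 1 to 3 (-2.97, SE 0.48, adjusted p = 0.000262). Against tumours, 12 were higher and 1 lower (28.5% and 18.0% of all genes tested were), with a median of 1.79, from *NLaz*, a lipid-binding lipocalin, at 5.34 (SE 0.37, adjusted p = 8.96e-08) to *pnt*, an ETS transcription factor, at -1.39 (SE 0.32, adjusted p = 0.00299). *loco* is counted both in this list and in the junction list. Of 21 genes of this list with reads in metamorphed cells, 13 were highest in replicate 2, 4 in replicate 1 and 4 in replicate 3.

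**Figure D4:**
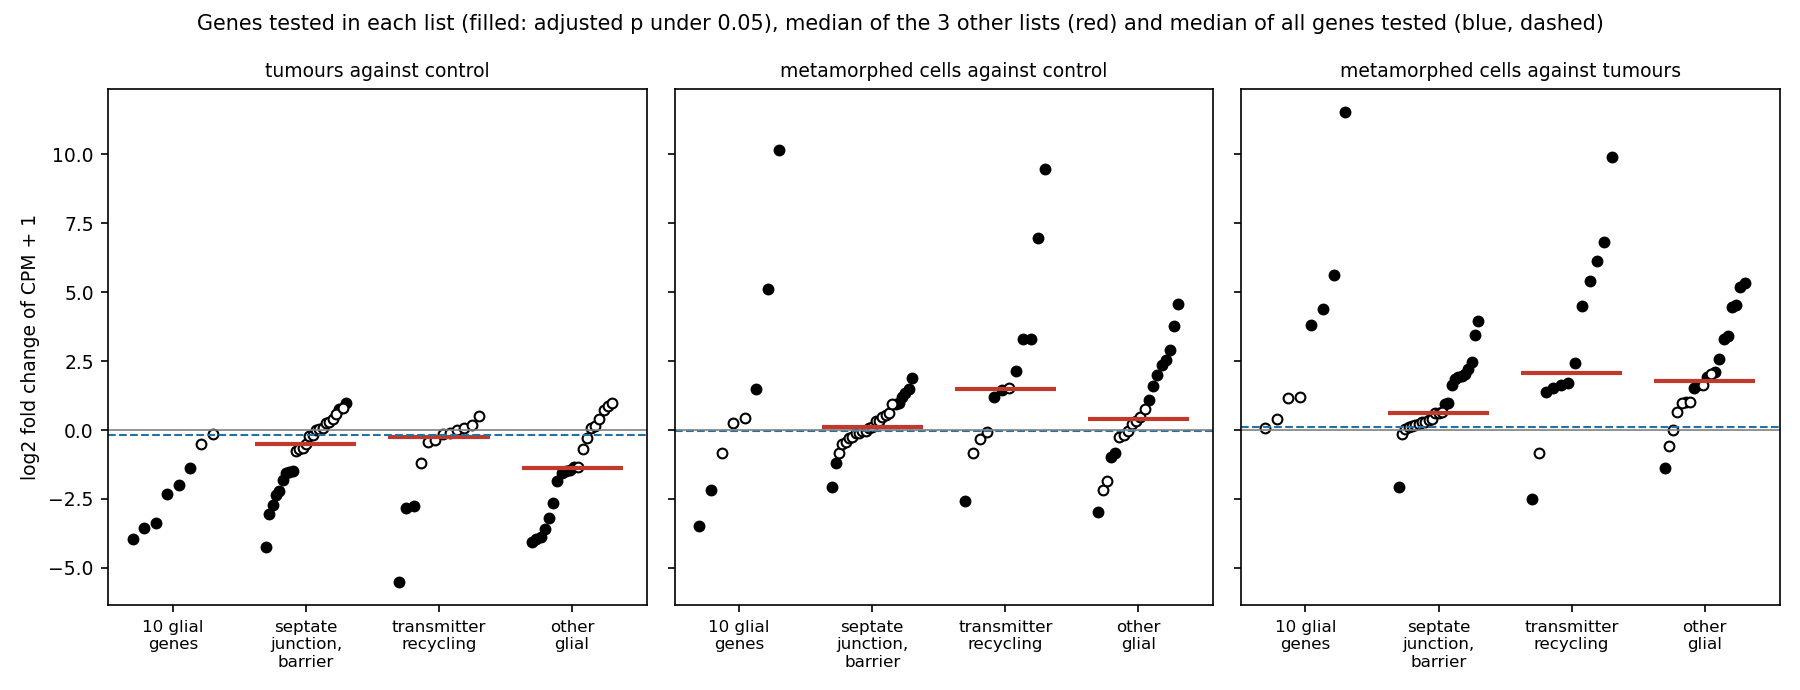
Log2 fold change of CPM + 1 (y axis) of each gene tested among the 10 glial genes and in the 3 further lists, in 3 comparisons, with 1 point per gene (filled for an adjusted p under 0.05 in limma), red lines at the medians of the 3 further lists and a dashed line at the median of all genes tested. In metamorphed cells against control the transmitter genes have a median of 1.50, and the junction genes, at 0.12, lie nearer to the dashed line. In tumours against control the medians are -0.26 for the transmitter genes and -0.49 for the junction genes, beside -0.19 for all genes tested.

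Genes with the most similar profile were found by the mean absolute difference of log2(CPM + 1) over the 12 samples, after each gene was centred on its own mean. For *repo* they were *Osi24* (0.23), *Toll-6* (0.30) and *CG34244* (0.31). The nearest to *Gs2* were *Bbd* (0.41), *CG5397* (0.48) and *CG6409* (0.61), which stood at 3029, 2797 and 6878 CPM on average in metamorphed cells. *run* was the nearest to *wrapper* (0.08), *CG31326* to *Eaat1* (0.29), *Elal* to *axo* (0.31), *CG4660* to *Gat* (0.21), *Pvr* to *moody* (0.51) and *CR40354* to *nrv2* (0.20). No other glial gene was among the 3 nearest of any of these 8. Only these 8 of the 10177 genes tested are glial genes of this set, so this says little about whether they share a profile.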

How the data were processed

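RNA sequencing covered 12 samples, grouped by the submitters' labels. Per the labels and the study's methods, the authors made libraries with SMARTSeq2 and NexteraXT, aligned reads to dm6 with TopHat2 2.0.12 and Bowtie2 2.2.3, and deposited log2 CPM from edgeR 3.16.5 (R 3.3.1), normalised between samples. The read counter, its strand setting and the annotation are not given in the sources used here. Removing the prior count of 2.0 reads gave whole reads (within 0.05 of a whole number) for 100% of the values, and from them linear CPM. Symbols, positions and exon lengths came from Ensembl's BDGP6 annotation, which matched 17215 of 17521 identifiers.

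A gene was tested where 2 or more samples had 1 CPM or more, which left 10177. The test was that of limma 3.58.1 (R 4.3.3), with lmFit, contrasts.fit and eBayes with trend, on log2(CPM + 1), with a mean per group for the 5 groups. P-values were adjusted after Benjamini and Hochberg over all of these genes, at 0.05. Adding 1 CPM understates the change of low genes. The tumour group weights the 3 ages equally. The planned design had expected deposited log2 CPM, to be turned back into linear CPM, and the test was kept. The steps were tested on simulated data. Tables were made with pandas 2.3.3 and NumPy 2.4.6 under Python 3.11.15, and figures with matplotlib 3.10.9.

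The glial genes and the lists were chosen with earlier results of these data known. In further lists, only the called genes with the highest and lowest change are named, besides paralogues and genes said to be chosen later. Alternatives covered the pseudocount, filter, scaling, voom, length trend, replicate block, samples in the fit and each sample left out in turn.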

Additional observations from a re-analysis of the deposited data

Results flagged for a closer look

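*Gat* and *axo* each had reads in only 1 of the 6 tumours, so that the gap from the highest tumour to the others, divided by the whole range, was 1 for both. For *Gat* this was the second 8-week tumour, with 5 reads (0.202 CPM), and for *axo* the second 14-week tumour, with 3 reads (0.203 CPM). With continuous values chance alone sets apart about 1 in 20 groups, a rate that does not apply here, since this measure is always 1 where 5 of 6 samples have 0 reads.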

How the results depend on the processing

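Of 597 values of the glial genes under alternatives, 555 kept their direction and their side of the threshold, 18 turned sign without a call before or after, 23 lost their call, 1 gained a call and 0 of the called values reversed. The count of glial genes lower in metamorphed cells than in control, 2, fell to 1 when the fit held only the groups compared and ran from 1 to 2 with each sample left out. Of all 10177 genes tested, 1714 were lower when the fit held only the groups compared. *repo*, *wrapper*, *moody* and *axo* in tumours were called under all alternatives run. So were *wrapper*, *Gs2* and *Eaat1* in metamorphed cells against control, and *moody*, *axo*, *Gs2* and *Eaat1* in metamorphed cells against tumours. For *repo*, *wrapper* and *Eaat1* this stability says little, since each passed the main filter only through the group where it was high. *Gs2* in tumours also lost its call with a pseudocount of 4 CPM (-0.56), with quantile normalization (-0.49) and with the transcript length trend removed (-1.07). *Gat* in tumours lost its call with no filter (adjusted p = 0.0653), quantile normalization (-1.41), voom (-5.29), only the groups compared (adjusted p = 0.0528) and the length trend removed (-1.37), and was not tested with the filter at 5 CPM. *axo* in metamorphed cells against control lost its call with a pseudocount of 0.1 CPM (adjusted p = 0.116), the log2 values as deposited (adjusted p = 0.149), CPM of total reads (1.04) and only the groups compared (adjusted p = 0.0667). The changes of sign were in *nrv2* (tumours -0.69 to 0.62; metamorphed cells -0.70 to 0.53 against control and -0.10 to 0.79 against tumours), *Eaat1* in tumours (-1.23 to 0.35), *moody* in metamorphed cells against control (-0.09 to 0.80) and *wrapper* against tumours (-0.30 to 0.56). The cause was not tested. The range of glial genes called lower in tumours was 4 to 6. Among all genes tested the number lower in tumours ran from 1461 of 9953 (length trend removed) to 2677 of 10190 (CPM of total reads).

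Scaling moved the share of higher calls among all genes. In tumours against control it was 39.9%, and 55.4% with quantile normalization, 26.0% with CPM of total reads and 50.3% with the length trend removed, with medians of -0.19, 0.07, -0.43 and 0.02. In metamorphed cells against control it was 53.2%, and 36.3% with CPM of total reads. Against tumours it was 61.3%, and 43.4% with quantile normalization. The calls for *repo*, *moody*, *wrapper* and *axo* in tumours held under each of these, although *repo* and *wrapper* passed the main filter only through the control samples.

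With the replicate number as a block, 6 glial genes were lower in tumours, 3 higher and 2 lower in metamorphed cells against control, and 4 higher against tumours, as without it. Of all 10177 genes tested, 2049 were lower in tumours in this fit. In metamorphed cells 2130 were higher and 1855 lower than in control, and 2673 were higher than in tumours. Deviations of same-numbered samples correlated at -0.02 on average (-0.20 to 0.27), against 0.01 (-0.27 to 0.20) for other samples. On average the numbers thus showed no pairing. In groups of 2 the deviations mirror each other, so pairing between particular groups cannot be judged from these values. At 3 reads, levels under 1.18 CPM in control replicate 1 could have been missed.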
